A study of Mus musculus with 25 samples.

Results

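The gene-to-gene H3K27ac contacts were the pairs of 10 kb bins that carried a gene symbol at both anchors in the deposited H3K27ac HiChIP lists of TKO cells at 0 h or 24 h. There were 7971 such pairs among 109776 pairs in either list (7.26%). The 0 h list held 7130 of them, the 24 h list 6082, and 5241 were in both. Another 39255 pairs had a symbol at 1 anchor and 62550 had none. Genes of the gene-to-gene pairs included Malat1 and Neat1, Hox genes, Nanog, Pou5f1 and 67 of 78 annotated cytosolic ribosomal protein genes.

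H3K27ac is an acetyl mark on histone H3 at active promoters and enhancers. HiChIP joins DNA fragments that are neighbours in the nucleus and pulls the ligation products down with an antibody, so that each count is a contact in which at least 1 end carried the mark. When both ends lie at genes, the contact joins 2 gene neighbourhoods, often 2 active promoters. Clusters of promoters that meet in this way are a known feature of gene-dense, highly transcribed DNA in embryonic stem (ES) cells, next to the better known contacts of a promoter with a distal enhancer. KLF4 is a zinc finger transcription factor of the pluripotency network that binds GC-rich CACCC-type sites.

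The TKO libraries were V6.5 mouse ES cells grown in 2i medium, which holds ES cells in a naive state, either without doxycycline (0 h, 3 libraries) or with doxycycline for 24 h (3 libraries). The labels do not expand TKO and name no deleted gene, so the 2 groups are called here by label and time, and no targeted gene could be checked. The same bin pairs were read in 7 other lists. These were H3K27ac HiChIP of MEF (2 libraries) and of V6.5 ES cells in 2i (2), KLF4 HiChIP of reprogramming day 3 (3), day 6 (4) and ES cells in 2i (4), and Hi-C of MEF (2) and ES cells (2). MEF were fibroblasts of E13.5 embryos, heterozygous for an Oct4-GFP reporter, an inducible OKSM cassette (Oct4, Klf4, Sox2 and Myc) and rtTA3, collected at passage 3. Day 3 and day 6 cells were the same kind of fibroblast after doxycycline and ascorbic acid, as bulk culture on day 3 and sorted for SSEA1 on day 6, so every day 3 and day 6 cell population carried the induced factors.

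TKO libraries held 68.3 to 109.9 M contacts each, with a median of 22 to 35 counts per listed pair. All strengths below are contacts per 100 M contacts of the library, where M stands for mega. Replicates 2 and 3 at 0 h did not differ beyond sampling noise (chi-square test, p = 0.070), nor did replicates 1 and 3 at 24 h (p = 0.20), replicates 1 and 2 of ES KLF4 (p = 0.32) or its replicates 3 and 4 (p = 0.99), and each of these sets was counted as 1 replicate. TKO values are therefore given for replicate 1 and then for 2 with 3 at 0 h, and for 1 with 3 and then for 2 at 24 h. The 2 joined sets of ES KLF4 stood further apart from each other than any other replicates (chi-square per degree of freedom 1.24 to 1.497, against 1.03 to 1.09 between other replicates that differed beyond sampling noise). No day 6 library differed from another beyond that noise, and these 4 were kept as separate values and entered no test. The labels do not say that replicates were separate cultures, so p-values measure only the spread between these libraries.

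Promoter sequences from RefSeq are shown for the genes at both ends of 4 of the pairs with the largest changes. Each runs from 250 bases before to 50 bases after the start, 5′ to 3′ on the gene's strand, in GRCm38.p6. Capitals mark GGGNGTGG or its reverse complement CCACNCCC, a core of the KLF4 motif, searched on both strands. The first pair of genes fell at 24 h, the next 2 pairs rose, and the last pair was stronger in MEF than in ES cells.
Pramel7, chr2:87492369-87492668, minus strand: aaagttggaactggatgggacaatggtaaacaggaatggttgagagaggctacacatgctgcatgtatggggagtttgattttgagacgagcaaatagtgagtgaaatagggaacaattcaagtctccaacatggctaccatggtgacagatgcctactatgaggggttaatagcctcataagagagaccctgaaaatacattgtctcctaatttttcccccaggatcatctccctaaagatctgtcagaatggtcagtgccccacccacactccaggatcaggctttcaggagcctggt
Pramel6, chr2:87506315-87506614, plus strand: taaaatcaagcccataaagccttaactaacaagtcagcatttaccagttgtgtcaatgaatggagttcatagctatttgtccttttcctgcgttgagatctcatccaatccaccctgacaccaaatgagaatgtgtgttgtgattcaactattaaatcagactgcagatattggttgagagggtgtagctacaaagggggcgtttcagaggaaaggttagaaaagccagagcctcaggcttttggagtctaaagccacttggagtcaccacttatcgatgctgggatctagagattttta
Ifitm10, chr7:142372210-142372509, minus strand: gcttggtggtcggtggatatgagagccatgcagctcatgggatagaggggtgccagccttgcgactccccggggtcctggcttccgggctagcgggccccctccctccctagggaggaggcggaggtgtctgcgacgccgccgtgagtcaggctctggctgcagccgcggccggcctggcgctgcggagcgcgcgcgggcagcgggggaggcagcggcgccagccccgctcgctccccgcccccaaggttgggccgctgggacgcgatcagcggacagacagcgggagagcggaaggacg
Ctsd, chr7:142387778-142388077, minus strand: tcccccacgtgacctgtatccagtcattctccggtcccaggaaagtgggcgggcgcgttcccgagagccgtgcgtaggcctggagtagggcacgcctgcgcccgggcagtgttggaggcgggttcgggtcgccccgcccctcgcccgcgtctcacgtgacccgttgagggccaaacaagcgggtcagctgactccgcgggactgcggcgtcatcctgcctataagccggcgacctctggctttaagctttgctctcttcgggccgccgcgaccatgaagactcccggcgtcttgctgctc
Gdpd3, chr7:126766164-126766463, plus strand: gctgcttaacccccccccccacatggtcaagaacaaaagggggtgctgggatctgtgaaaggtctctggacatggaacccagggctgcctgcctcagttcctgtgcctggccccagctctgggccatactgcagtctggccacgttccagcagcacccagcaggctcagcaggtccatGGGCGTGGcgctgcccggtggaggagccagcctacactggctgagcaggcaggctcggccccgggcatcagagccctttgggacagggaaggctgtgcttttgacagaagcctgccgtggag
Tbx6, chr7:126781233-126781532, plus strand: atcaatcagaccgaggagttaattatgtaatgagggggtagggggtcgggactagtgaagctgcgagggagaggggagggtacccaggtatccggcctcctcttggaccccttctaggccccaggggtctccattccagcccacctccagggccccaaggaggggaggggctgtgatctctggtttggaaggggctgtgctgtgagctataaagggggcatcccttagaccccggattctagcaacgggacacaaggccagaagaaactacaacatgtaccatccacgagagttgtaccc
S100a4, chr3:90603520-90603819, plus strand: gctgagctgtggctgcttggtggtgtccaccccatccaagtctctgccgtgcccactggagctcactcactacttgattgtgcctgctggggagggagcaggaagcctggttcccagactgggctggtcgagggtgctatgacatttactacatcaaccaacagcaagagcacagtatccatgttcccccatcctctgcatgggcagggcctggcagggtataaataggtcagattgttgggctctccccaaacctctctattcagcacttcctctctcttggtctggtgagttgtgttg
S100a6, chr3:90612644-90612943, plus strand: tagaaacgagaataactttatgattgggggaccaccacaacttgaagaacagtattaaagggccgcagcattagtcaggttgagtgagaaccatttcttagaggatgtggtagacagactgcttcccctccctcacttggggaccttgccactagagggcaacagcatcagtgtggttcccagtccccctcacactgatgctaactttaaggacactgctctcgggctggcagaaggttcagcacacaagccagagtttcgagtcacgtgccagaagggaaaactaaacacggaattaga
Of these 8 windows, 1 held the motif, that of Gdpd3, and the letters were in none of the other 7. The Pramel windows were poor in G and C (46% and 42%), and those of Ifitm10 (73.7%) and Ctsd (67.3%) were rich. Across 5919 RefSeq promoters of genes in gene-to-gene pairs, 23.4% held the motif, against 23.6% of 3106 promoters of annotated genes without such a pair and 17.6% of all 27025 promoters. Their median GC content was 59.3%, 61.7% and 52.7%, so motif share and GC content moved together. The motif was in 22 of 100 promoters of genes in pairs that fell at 24 h (95% Wilson interval 15.0 to 31.1%). In pairs that rose it was in 11 of 27 (40.7%, interval 24.5 to 59.3%). These promoters came from 69 and 16 called pairs, some of which share a bin. The intervals treat them as independent, which they are not. Median GC content was 57.8% in the promoters of pairs that fell and 60.3% in those that rose, so that order did not extend to all sets. The motif shares were not tested.

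The pairs involved 8301 genes in 6737 bins, out of 54825 anchor bins and 10485 with a symbol. RefSeq held 7845 of the symbols (94.5%), 7070 of them protein-coding and 731 long non-coding RNA genes. Of 6246 gene and bin entries with a RefSeq promoter, 5923 (94.8%) had the start in the named bin, so a symbol mostly marks a gene start rather than a gene body. Some starts were missed, since 3.06% of bins without a symbol held the start of a protein-coding RefSeq gene. Among 2741 pairs with 1 gene of known strand at each anchor, 51.3% lay on the same strand, 28.6% pointed apart and 20.1% pointed towards each other. Only 3 pairs named the same gene at both anchors, among them St6galnac2.

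Chromosomes 7, 19, 17 and 11 had the most of these contacts. Chromosome 7 had 959 pairs (13.0% of its listed pairs), chromosome 19 had 771 (11.1%), chromosome 17 had 769 (10.9%) and chromosome 11 had 690. By contrast, chromosome 1 had 166 (3.53%) and chromosome 13 had 146 (3.25%). The authors' CPM is per chromosome, so the listing cutoff was set within each chromosome and these numbers also carry that choice.

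Gene-to-gene pairs more often had anchors 50 kb or more apart than other listed pairs. The median distance was 30 kb (quartiles 20 and 60 kb), against 30 kb (10 and 50 kb) with genes at 1 anchor and 20 kb (10 and 40 kb) with none. The maximum was 1070 kb, against 1080 and 1600 kb. Anchors lay at least 50 kb apart in 37.9% of gene-to-gene pairs, against 27.1% of pairs with genes at 1 anchor and 23.7% with none. Adjacent bins made up 17.6%, 26.5% and 28.0%. Pairs share anchors and are not independent, so these class differences are descriptions.

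**Figure D1:**
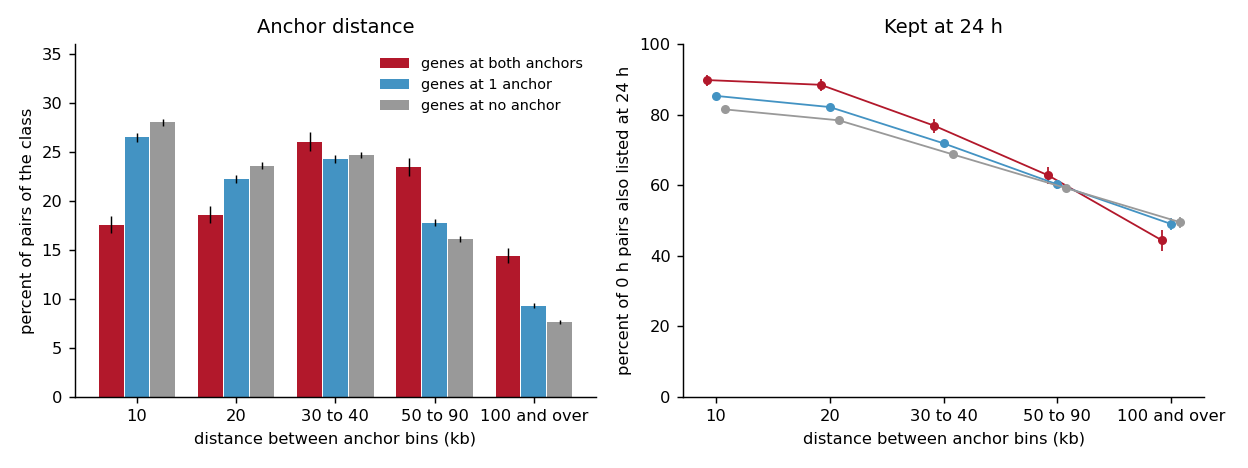
Left, percent of the pairs of each class (genes at both anchors, at 1, at none) by distance between anchor bins in kb. Right, percent of 0 h pairs that were also in the 24 h list. Bars or lines around each value are 95% Wilson intervals. Gene-to-gene pairs are the least frequent class at 10 kb and the most frequent from 50 kb on, and their share kept at 24 h is 89.8% at 10 kb and 44.3% from 100 kb.

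Strength was lower at longer distances. Among pairs in both lists the median strength at 0 h was 55.5 and 56.5 at 10 kb, 40.02 and 40.9 at 20 kb, 30.02 and 31.3 at 30 to 40 kb, 27.3 and 27.7 at 50 to 90 kb, and 22.7 and 24.1 from 100 kb. Over all distances, median strength at 0 h was lower with genes at both anchors (35.5 and 36.7) than at 1 or none (37.3 and 38.5 in each). At 10 kb it was higher (55.5 and 56.5, against 51.8 and 53.5 with genes at 1 anchor). From 100 kb it was lower (22.7 and 24.1, against 23.6 and 24.7). Set against the count expected at its distance, the authors' ratio was higher when both anchors had genes. This ratio was not split by distance, and gene-to-gene pairs lay further apart. At 0 h the median ratio was 4.01, 4.13 and 4.14 in the 3 libraries, against 3.47, 3.598 and 3.59 with genes at 1 anchor and 3.37, 3.48 and 3.43 with none.

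A few bins met many partners. The median bin had 2 partners, 3045 bins (45.2%) had 1, and 778 (11.5%) had 5 or more. The bin of Snx15, a sorting nexin gene at chr19:6120001-6130000, had the most with 21 partner bins, 19 of them at 0 h, 18 at 24 h, 17 in the ES H3K27ac list, 11 in the MEF list and 10 in the ES KLF4 list. Gstp2, a glutathione S-transferase gene at chr19:4040001-4050000, had 20, of which 20 were listed at 0 h, 12 at 24 h and 3 in MEF. Gm14963 and Ehd1, at chr19:6270001-6280000, had 19 (18 at 0 h, 10 at 24 h, 4 in MEF). Apom and Bag6 on chromosome 17 had 18, and so did 2 bins on chromosome 19, that of Bscl2 and Gng3 and that of Ints5 with its neighbours. Linked through shared bins, the pairs formed 1650 groups, 784 of them a lone pair. The largest joined 53 bins and 73 genes over chr19:5270001-6420000, and the next 43 bins and 57 genes over chr10:79630001-80440000. Gstp2 has close paralogs nearby, and how reads that fit more than 1 copy were assigned is not given in the sources used here.

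The first comparison asked how gene-to-gene contacts differed after 24 h of doxycycline. Most were listed at both times and few passed the test. Of the 7130 pairs at 0 h, 5241 (73.5%, Wilson 72.5 to 74.5%) were listed again at 24 h, against 73.8% and 71.8% in the other classes. New at 24 h were 841 of 6082 (13.8%), fewer than with genes at 1 anchor (17.1%) or none (22.0%). Kept pairs made up 89.8% at 10 kb and 44.3% from 100 kb, against 85.3% and 49.0% with genes at 1 anchor. Absence from a list can mean any value below the authors' filters.

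On counts, 85 of the 5241 shared gene-to-gene pairs (1.62%) had an adjusted p under 0.05 (quasi-likelihood test of edgeR, Benjamini-Hochberg over all pairs). Across all 67728 shared pairs 2.62% passed (0.576% higher, 2.04% lower). Among the gene-to-gene pairs 16 were higher and 69 lower. Their median log2 change was -0.01, against 0.01 over all pairs. All called gene-to-gene pairs with anchors 50 kb or more apart were lower (10 of 10 at 50 to 90 kb and 6 of 6 from 100 kb), and the 16 that rose had anchors 10 to 40 kb apart. At these 2 distances 0.973% and 1.33% were called, against 1.80% and 1.68% over all pairs. Most far calls over all pairs were lower too. In a fit of pairs at least 50 kb apart alone, 93 of 112 called pairs were lower, and 6 gene-to-gene pairs were called. The count depended on single replicates. With 0 h replicate 1 left out 65 were called, with 0 h replicates 2 and 3 left out 15, with 24 h replicates 1 and 3 left out also 15, and with 24 h replicate 2 left out 55. DESeq2 called 3 (85 at an unadjusted p under 0.05), but it gave an adjusted p to only 260 of the 5241 pairs. Scaling by contact totals alone moved the median log2 change of all pairs to -0.10 and gave 7 higher and 155 lower.

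**Figure D2:**
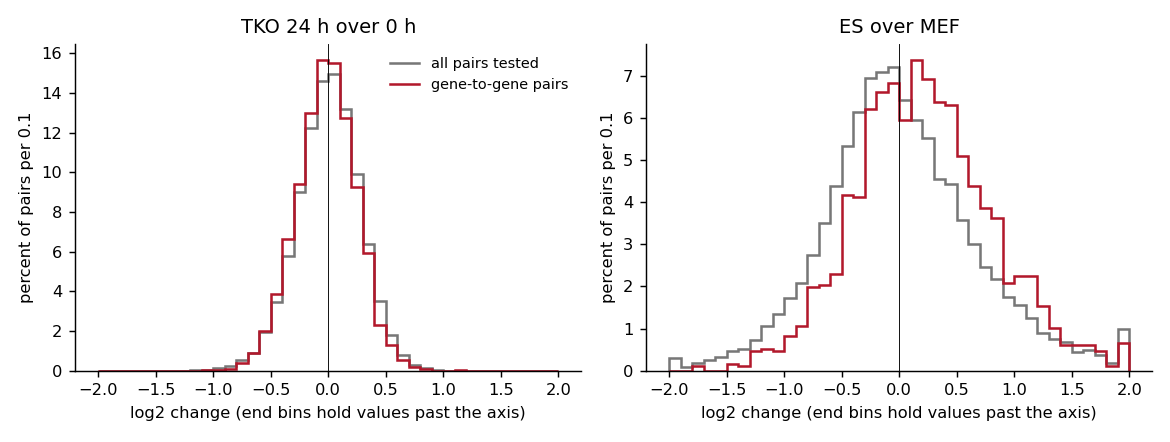
Percent of pairs per 0.1 of log2 change (x axis; the end bins hold all values past the axis) in TKO at 24 h over 0 h (left) and in ES over MEF (right), for all pairs tested (grey) and gene-to-gene pairs (red). On the left the outlines nearly coincide (medians -0.01 and 0.01). On the right the gene-to-gene outline lies to the right (medians 0.18 and -0.04).

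The pairs that fell most included a cluster of genes around Msln on chromosome 17 and the Pramel genes on chromosome 2. Chtf18 and Rpusd1 with Msln (chr17:25720001-25730000 and chr17:25750001-25760000; 30 kb) gave 90.96 and 87.8 at 0 h and 40.1 and 41.3 at 24 h (log2 change -1.03, SE 0.17, adjusted p 1.1e-06). Msln encodes the surface protein mesothelin, and Chtf18 a subunit of a clamp loader of DNA replication. The ES libraries had 41.4 and 43.3. Pramel7 with Pramel6 (chr2:87490001-87500000 and chr2:87500001-87510000; adjacent bins) gave 166 and 169.6 at 0 h and 75.6 and 92.4 at 24 h (log2 change -0.92, SE 0.13, adjusted p 3.9e-09). These are PRAME-family genes active in the early embryo and in naive ES cells. The ES libraries had 45.6 and 55.8, and no MEF or KLF4 list held the pair. Strengths of ES and TKO libraries were scaled by contact totals alone and were not tested against each other. The 2 genes are paralogs, so reads shared between them could be split either way.

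Gm14963 and Ehd1 with Men1, 60 kb apart (chr19:6270001-6280000 and chr19:6330001-6340000), gave 69.1 and 69.8 at 0 h and 38.1 and 32.4 at 24 h (log2 change -0.85, SE 0.18, adjusted p 0.00071). Men1 encodes menin, a partner of histone H3K4 methyltransferases, and Ehd1 an endocytic recycling protein. This pair was also in the MEF (20.01 and 33.3), ES (44.4 and 44.5), day 3 KLF4 (27.6, 27.2 and 25.5) and ES KLF4 (20.8 and 24.2) lists. Scp2, a sterol carrier gene, with Echdc2 gave 47.3 and 56.5 at 0 h and 28.8 and 22.6 at 24 h (log2 change -0.90, adjusted p 0.0025). Fbxw10 with Tvp23b gave 63.7 and 63.2 at 0 h and 28.8 and 37.4 at 24 h (log2 change -0.87, adjusted p 0.0010). At 210 kb, H2-M5 and 2410137M14Rik with Ubd, which encodes a ubiquitin-like protein, gave 46.4 and 42.1 at 0 h and 24.7 and 17.7 at 24 h (log2 change -0.89, adjusted p 0.0077). The pairs described by size of change were taken from called pairs whose groups did not overlap, which held for 84 of the 85.

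Msln was the bin with the most called changes. Of its 8 shared pairs 5 fell and none rose, with a median log2 change of -0.64. Besides Chtf18 these were Metrn, a secreted neurotrophic factor gene, with 92.8 and 83.6 at 0 h and 36.8 and 52.1 at 24 h (log2 change -0.91, adjusted p 2.3e-05), Mslnl with 125 and 140.1 at 0 h and 88.3 and 78.7 at 24 h (log2 change -0.56, adjusted p 0.0036), Narfl with 85.5 and 81.2 at 0 h and 57.5 and 35.4 at 24 h (log2 change -0.67, adjusted p 0.0050), and Stub1 with Rhbdl1 with 29.1 and 38.5 at 0 h and 18.7 and 15.7 at 24 h (log2 change -0.88, adjusted p 0.027). The partners that did not pass were Gng13 (log2 change -0.61, adjusted p 0.17), Haghl (-0.56, 0.054) and Wdr24 with Jmjd8 (-0.48, 0.48), and 2 more pairs, with Mettl26 and Wfikkn1, were listed at 0 h alone. The Mslnl call was lost without 0 h replicates 2 and 3 (adjusted p 0.22) or 24 h replicate 2 (0.088), and the Narfl call without 0 h replicate 1 (0.057), 0 h replicates 2 and 3 (0.057) or 24 h replicate 2 (0.33). The Msln bin was singled out after its values were seen. Of the other bins in at least 2 called pairs, Baz2a had 3 of 8 lower and Elobl 3 of 7 lower, and Gmip had 2 of 4 and Il25 with Cmtm5 2 of 3 higher. In all, 28 of the 85 called pairs touched 1 of 13 such bins, so called pairs are not independent of each other.

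Of the 7 pairs described here with the largest rises, 5 lay on chromosome 7, and all had anchors 10 to 30 kb apart. Chromosome 7 held 12.03% of all gene-to-gene pairs, the most of any chromosome. These 7 were picked by size of change, and their number on chromosome 7 was not tested. Kdelr1 and Grin2d with Syngr4 and Tmem143 (chr7:45870001-45880000 and chr7:45890001-45900000; 20 kb) gave 23.6 and 29.5 at 0 h and 54.2 and 58.01 at 24 h (log2 change 1.14, SE 0.20, adjusted p 1.2e-05). Kdelr1 encodes a receptor that returns proteins to the endoplasmic reticulum, and Grin2d an NMDA receptor subunit. The ES libraries had 25.2 and 26.1, without a test against TKO cells. Ifitm10 with Ctsd, the cathepsin D gene, whose promoters are printed above (chr7:142370001-142380000 and chr7:142380001-142390000), gave 54.6 and 51.7 at 0 h and 88.3 and 92.4 at 24 h (log2 change 0.87, SE 0.16, adjusted p 1.5e-05). Gdpd3 with Tbx6, a T-box factor of mesoderm, gave 24.6 and 21.1 at 0 h and 39.5 and 33.4 at 24 h (log2 change 0.83, adjusted p 0.023). The stress factor gene Ddit3 with Arhgap9 gave 16.4 and 22.3 at 0 h and 29.4 and 37.4 at 24 h (log2 change 0.82, adjusted p 0.041).

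The other 3 of these 7 pairs had smaller changes. Inppl1, a lipid phosphatase gene, with Folr2, a folate receptor gene, gave 32.7 and 32.5 at 0 h and 58.9 and 42.3 at 24 h (log2 change 0.78, adjusted p 0.0073). Txnrd1, the thioredoxin reductase gene, with 1700028I16Rik gave 24.6 and 33.1 at 0 h and 47.5 and 47.2 at 24 h (log2 change 0.78, adjusted p 0.013). Uba2, which encodes a subunit of the SUMO-activating enzyme, with Pdcd2l gave 37.3 and 30.7 at 0 h and 50.2 and 52.1 at 24 h (log2 change 0.72, adjusted p 0.019). Like the others described by size of change, these 3 were chosen among called pairs without overlap between the groups.

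**Figure D3:**
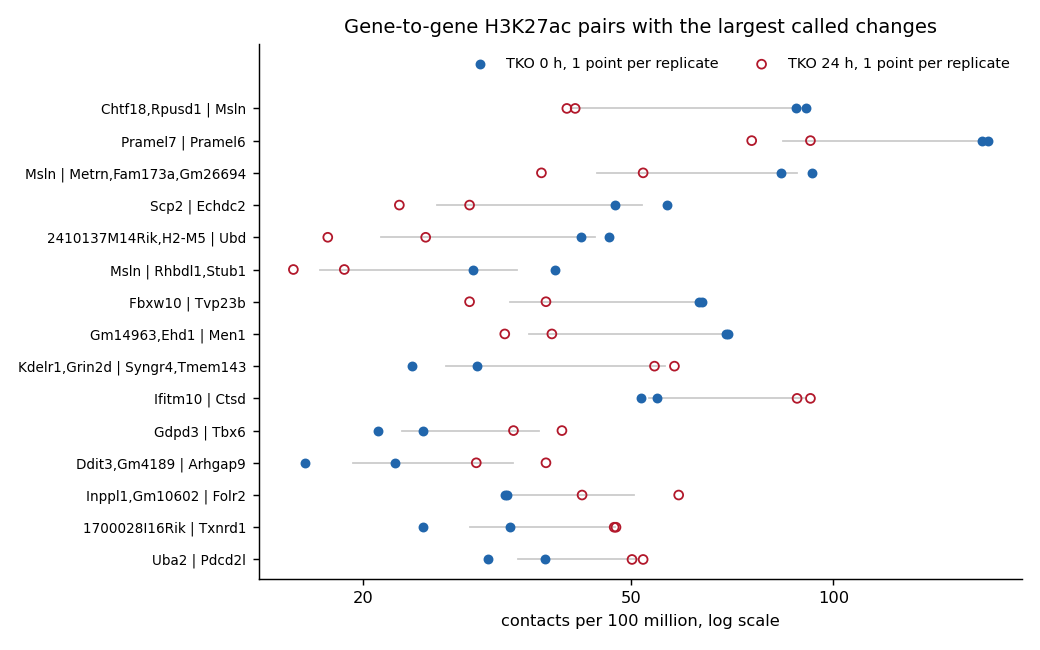
Strength in contacts per 100 M (log axis) of 15 of the gene-to-gene pairs with the largest called changes, 1 point per replicate, TKO 0 h filled and 24 h open. Grey lines join the group means. Only pairs whose groups did not overlap were chosen, so replicates of the 2 groups are apart in each. Chtf18 to Msln lies at 87.8 to 91.0 against 40.1 to 41.3.

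Of these 15 pairs, 5 were called with each replicate left out in turn: Chtf18 with Msln, Pramel7 with Pramel6, Ehd1 with Men1, Kdelr1 with Syngr4 and Ifitm10 with Ctsd. The other 10 lost the call without at least 1 replicate. The Metrn and Fbxw10 pairs lost it only without 24 h replicates 1 and 3 (adjusted p 0.15 and 0.25), and those of Ubd, Ddit3 and Txnrd1 without any one (highest adjusted p 0.18, 0.28 and 0.24). The highest adjusted p was 0.22 for Scp2, 0.52 for Stub1, 0.47 for Tbx6, 0.63 for Folr2 and 0.48 for Uba2, in each case without 0 h replicates 2 and 3 or without 1 of the 24 h replicates.

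The strongest contact between genes at least 20 kb apart joined Malat1 and Neat1, 2 genes of nuclear long non-coding RNAs of which the latter forms the scaffold of paraspeckles (chr19:5800001-5810000 and chr19:5840001-5850000). It gave 268 and 315 at 0 h and 189 and 182 at 24 h (log2 change -0.56, SE 0.11, adjusted p 0.00011), and its adjusted p was 0.14 without 0 h replicates 2 and 3. It was in all 9 lists, with 40.01 and 57.1 in MEF, 329 and 317 in ES cells, 58.9, 65.5 and 40.4 for KLF4 on day 3 and 42.4 and 83.2 for KLF4 in ES cells. The Hs6st1 pair with 4930535G08Rik gave 278 and 294 at 0 h and 179.9 and 236 at 24 h (log2 change -0.39, adjusted p 0.020), and Zfp57, which encodes a keeper of imprints, with Mog gave 191 and 200.3 at 0 h and 122 and 165 at 24 h (log2 change -0.38, adjusted p 0.049). Both of these lost the call without 0 h replicate 1, 0 h replicates 2 and 3 or 24 h replicates 1 and 3 (highest adjusted p 0.68 and 0.80). The third and the fourth by strength, between these 2, did not pass: Zc3h11a with Lax1 had 253 and 289 at 0 h and 201 and 257 at 24 h (log2 change -0.18, adjusted p 0.49), and Amotl2 had 199 and 201 at 0 h and 134 and 156 at 24 h (log2 change -0.37, adjusted p 0.052).

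The longest contacts in both lists were weak and none was called. Hspa9, a mitochondrial chaperone gene, with Snhg4 lay 600 kb apart on chromosome 18 and gave 12.7 and 14.4 at 0 h and 12.7 and 16.7 at 24 h (log2 change 0.16, adjusted p 0.90). Pola2 with Men1 (370 kb) gave 14.6 and 16.2 at 0 h and 15.4 and 8.85 at 24 h (log2 change -0.18, adjusted p 0.88). Igll1 with Ube2l3, Ddb1 with Ptgdr2 and Malat1 with Snx15, 320 to 340 kb apart, had adjusted p-values of 0.78 to 1.0.

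Pairs listed at 1 time alone have no value at the other time. The strongest at 0 h alone were Ccdc166 with Mapk15 (76.4 and 87.8), the St6galnac2 pair (70.9 and 57.1), Lgals7 with Gm10648 (54.6 and 63.8) and Haghl with Metrn (59.1 and 56.5), all in adjacent bins and all also in the ES H3K27ac list. Those at 24 h alone were Gm11192 with BC030499 (59.5 and 56.05), Psme3 with Aoc2 (46.8 and 56.05), Nacc2 with 1810012K08Rik (38.8 and 63.9) and Nup88 with Rpain (52.8 and 48.2).

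As a share of all counts in shared pairs, gene-to-gene pairs held 7.56% and 7.53% at 0 h and 7.46% and 7.53% at 24 h. The difference of the means was -0.0537 percentage points (exact permutation test, two-sided, p = 0.333, the smallest p that 2 against 2 allows).

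The share of called changes was higher among pairs that a KLF4 list also held, a description without a test. Of 2209 shared gene-to-gene pairs in any of the 3 KLF4 lists 58 were called (2.63%; 48 lower), and of 3032 outside them 27 (0.891%; 21 lower). The same order held over all pairs (4.21% and 1.88%). Pairs in a KLF4 list were also stronger at 0 h, with a median of 45.1 against 31.6, and stronger pairs carry more counts. The part of strength in this difference was not tested.

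The H3K27ac peaks that the authors list per bin were present at both anchors and both times in 67.3% of gene-to-gene pairs, against 47.8% with genes at 1 anchor and 39.1% with none. Pairs with peaks at both anchors at both times held 75 of the 85 called changes, 63 of them lower, out of 3785 tested (1.98%), against 3.96% of all pairs with such peaks. In 7.04% of pairs an anchor had its peak at 0 h alone, and 5 of 298 were called (1.68%, against 2.41% over all pairs), 4 of them lower. In 2.91% it had one at 24 h alone, and 0 of 128 were called (0.779% over all pairs). In 24.1% of pairs at least 1 anchor had no listed peak.

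In gene-to-gene pairs, genes of the pluripotency list were joined only to neighbours that are not on the list. Of 24 genes 22 were annotated (all but Sox2 and Esrrb), 14 were in gene-to-gene pairs, and none of their 38 pairs had a list gene at both anchors. The TKO lists held 34 of the 38 at 0 h and 33 at 24 h, the ES H3K27ac list 35, the ES KLF4 list 11, the day 3 KLF4 list 1 and the MEF H3K27ac list 0. At 24 h, 2 of 29 tested were lower and none was higher, where 1.32% of all gene-to-gene pairs and 2.04% of all pairs were lower. Of the 29 log2 changes 20 were below 0, with a median of -0.08 (0.01 over all pairs). These pairs share anchors, with 5 each for Dppa5a and Pou5f1, and their signs were not tested. Both lower pairs involved Dppa5a, which encodes an RNA-binding protein of pluripotent cells. With Ooep it gave 419 and 479 at 0 h and 307 and 357 at 24 h (log2 change -0.36, SE 0.10, adjusted p 0.024), the highest values of any pair in the list. With Eef1a1, 120 kb away, it gave 50.03 and 43.9 at 0 h and 28.1 and 23.6 at 24 h (log2 change -0.71, SE 0.22, adjusted p 0.041). Neither call held without 0 h replicate 1, without 0 h replicates 2 and 3 or without 24 h replicates 1 and 3, where the highest adjusted p was 0.51 and 0.27.

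Nanog, a homeobox factor of the naive state, had 7 pairs over 80 to 360 kb, 3 in both lists, 3 at 0 h alone and 1 at 24 h alone. The strongest, with Apobec1, gave 49.1 and 60.1 at 0 h and 34.8 and 49.2 at 24 h (log2 change -0.35, adjusted p 0.40), so the groups overlapped. The longest, with the Polycomb gene Phc1, had 22.7 and 33.1 at 0 h and 37.8 and 43.3 in ES cells. Pou5f1, the Oct4 gene, had 5 pairs, all in both TKO lists, and with Tcf19 and Cchcr1 gave 146 and 155 at 0 h and 140.5 and 137 at 24 h (log2 change -0.02, adjusted p 0.97). Tdgf1, a Nodal co-receptor gene, gave 297 and 333 at 0 h and 261 and 256 at 24 h with Lrrc2 (log2 change -0.19, adjusted p 0.42), and Mycn gave 88.2 and 85.4 at 0 h and 74.9 and 75.7 at 24 h with the long non-coding RNA gene Platr19 160 kb away (log2 change -0.10, adjusted p 0.85).

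Markers of other cell types were few. Of 12 fibroblast genes 7 were annotated and 4 (Thy1, Vim, Pdgfrb and S100a4) were in 6 gene-to-gene pairs, 4 of which the MEF list held and 2 the ES list, and 0 of 3 tested were called at 24 h. The Vim pair with Trdmt1 had 31.8 and 26.5 at 0 h and 37.5 and 43.3 at 24 h (log2 change 0.58, adjusted p 0.14). Of 5 primed epiblast genes Otx2 and Dnmt3b were in 1 pair each, and neither was called. Of 6 extra-embryonic endoderm genes 1 was annotated and none was in a pair, and 0 of 3 two-cell-stage genes were annotated.

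Hox genes, the body-axis homeobox clusters, formed 16 pairs, 7 with Hox genes at both anchors. The MEF H3K27ac list held none of the 16. Hoxc13 with Hoxc12 gave 119 and 120.3 at 0 h and 88.96 and 102 at 24 h (log2 change -0.24, adjusted p 0.43), and 0 of 9 tested Hox pairs were called, with a median log2 change of -0.24. Of the zinc finger genes (Zfp followed by a number) 184 of 246 were in 329 pairs, 71 with such genes at both anchors, and 1 rose and 1 fell among 216 tested. Zfp genes often have near-identical neighbours, and reads shared between them could be split. The rise was Gmip with Zfp866 and Atp13a1 (63.7 and 67.4 at 0 h and 78.9 and 108 at 24 h; log2 change 0.57, adjusted p 0.010), and the fall was Zfp57 with Mog, above. The family counts here stand beside 0.305% higher and 1.32% lower among all gene-to-gene pairs tested, and 0.576% and 2.04% among all pairs. Cytosolic ribosomal protein genes were in 238 pairs and genes of the mitochondrial ribosome and respiratory chain in 359, with 2 of 177 and 2 of 250 lower at 24 h and none higher. The first 2 were Rpl12 with Slc2a8 (94.6 and 115 at 0 h and 67.6 and 71.8 at 24 h; log2 change -0.52, adjusted p 0.020) and Rps21 with Lama5 (116 and 118 at 0 h and 78.3 and 77.7 at 24 h; log2 change -0.48, adjusted p 0.028), and the others Mrpl45 with Npepps (log2 change -0.49, adjusted p 0.023) and Cox7a1 with Capns1 (log2 change -0.40, adjusted p 0.028). Single replicates decided these calls. Without 0 h replicates 2 and 3 the adjusted p was 0.51 for Rpl12, 0.24 for Rps21, 0.42 for Mrpl45, 0.38 for Cox7a1 and 0.19 for Gmip, and without 24 h replicate 2 it was 0.076, 0.14, 0.29, 0.074 and 0.35. Rpl12, Rps21, Mrpl45 and Cox7a1 also lost the call without 24 h replicates 1 and 3 (adjusted p 0.30, 0.24, 0.059 and 0.32), and Rps21, Cox7a1 and Gmip without 0 h replicate 1 (0.11, 0.081 and 0.061).

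The second comparison followed the same bin pairs in the other lists. The ES H3K27ac list held 73.7% of the gene-to-gene pairs, the MEF list 27.6%, ES KLF4 25.6%, day 3 KLF4 16.3% and day 6 KLF4 2.87%, and the Hi-C lists 49.8% (ES) and 31.4% (MEF). For H3K27ac and KLF4 these shares were higher than for pairs with genes at 1 anchor (64.9%, 24.2%, 22.1%, 14.2% and 2.73%) and at none (50.7%, 16.6%, 14.1%, 9.45% and 1.94%). Over all distances the shares in ES Hi-C were close (49.8%, 48.3% and 48.2%). In MEF Hi-C pairs without genes had the highest (31.4%, 31.7% and 37.0%). At 10 kb gene-to-gene pairs had the highest share, with 56.7%, 48.6% and 49.0% in ES Hi-C and 45.9%, 36.6% and 44.7% in MEF Hi-C. From 100 kb they had the lowest, with 22.0%, 27.8% and 30.1% in ES Hi-C and 10.98%, 18.2% and 20.2% in MEF Hi-C. With anchors 100 kb or more apart the order between genes at both anchors and at 1 turned in 4 of the 5 HiChIP lists: MEF H3K27ac held 8.54% and 11.7%, day 3 KLF4 6.10% and 6.81%, day 6 KLF4 0.523% and 0.875%, and ES KLF4 8.45% and 9.16%, with overlapping Wilson intervals in the KLF4 lists. It also turned in these 4 among pairs listed at 0 h alone (10.4% and 12.2% in MEF H3K27ac). Lists differ in length, from 4047 pairs for day 6 KLF4 to 318622 for ES Hi-C, so shares were compared between classes within a list and not between lists.

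**Figure D4:**
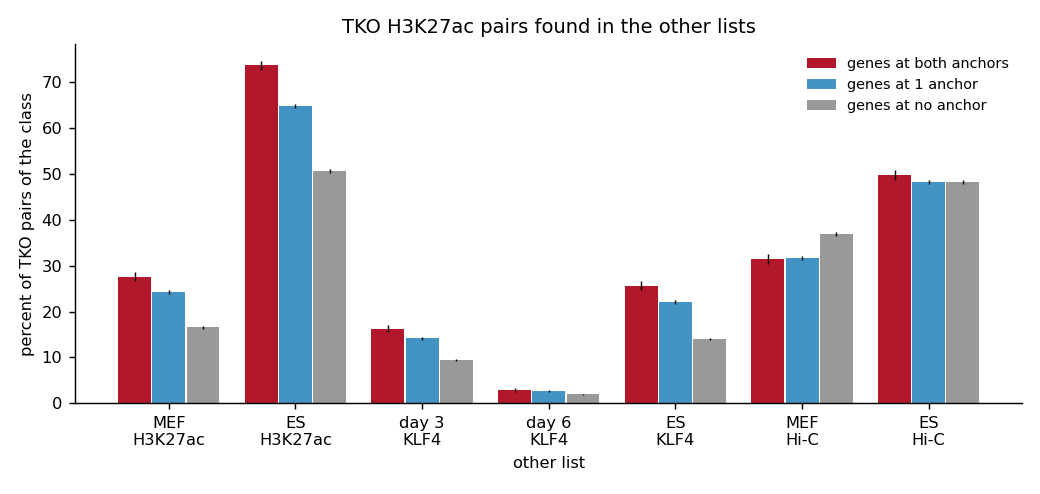
Percent of TKO H3K27ac pairs found with both anchors in the same bins in each of 7 other lists, for pairs with genes at both anchors, at 1 and at none. Bars start at 0 and carry 95% Wilson intervals, which cover counting error only. Gene-to-gene pairs have the highest share in the 5 HiChIP lists, and in MEF Hi-C the pairs without genes do (37.0%).

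Pairs in both TKO lists recurred most. The ES H3K27ac list held 88.1% of them, against 47.2% of pairs at 0 h alone and 43.2% at 24 h alone, and the ES KLF4 list 34.5%, 7.94% and 9.99%. Recurrence was lower at longer distances, from 82.6% at 10 kb to 57.9% from 100 kb in ES H3K27ac, from 42.7% to 8.54% in MEF H3K27ac and from 56.7% to 22.0% in ES Hi-C. All 4 H3K27ac lists held 1783 pairs (22.4%). Both TKO lists and ES but not MEF held 2835 (35.6%), and 233 (2.92%) were in MEF and not in ES. No other list held 1017 (12.8%). Only 87 (1.09%) were in all 9 lists. Besides Malat1 with Neat1 the strongest of these were Cox7a1, a respiratory chain gene, with Capns1 (200.1 and 217 at 0 h, 58.7 and 49.4 in MEF, 124 and 123 in ES cells) and Cct4, a chaperonin gene, with Fam161a (133 and 170.2, 49.3 and 50.4 in MEF and 90.1 and 91.4 in ES cells).

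Domains called by the authors from Hi-C mostly contained the pairs. In ES cells 269 of 7668 gene-to-gene pairs with both anchors in a domain crossed from 1 domain to another (3.51%), against 2.69% with genes at 1 anchor and 1.52% with none. In MEF domains 470 of 7445 crossed (6.31%, against 4.98% and 2.59%). These shares pool all distances, and gene-to-gene pairs lay further apart. At 10 kb 2.22% crossed in ES domains, against 1.82% with genes at 1 anchor and 0.861% with none. From 100 kb the shares were 6.26%, 6.77% and 4.76% in ES domains and 10.4%, 9.92% and 5.90% in MEF domains.

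The third comparison set H3K27ac contacts of ES cells against MEF, on 17901 pairs in both lists, of which 1964 were gene-to-gene pairs. By the same edgeR test, adjusted over all pairs, 614 were called (31.3%), 473 higher (24.1%) and 141 lower (7.18%) in ES cells. Over all pairs 32.0% were called (17.6% higher, 14.4% lower). The median log2 change was 0.18, against 0.04 with genes at 1 anchor, -0.06 with none and -0.04 over all pairs. Choosing pairs from TKO lists, which are of ES cells, favours pairs strong in ES cells: of 471 called pairs in no TKO list only 7 were higher. Without MEF replicate 2, 384 gene-to-gene pairs were called, and DESeq2 called 254 of the 1398 to which it gave an adjusted p. Contact totals alone moved the median of all pairs to 0.21 and gave 729 higher and 67 lower.

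The 4 largest rises over MEF were those of Lamtor2, Malat1, Spc24 and Dido1 with their partners. Lamtor2, a Ragulator gene, and Ubqln4 with Ssr2 gave 22.7 and 23.8 in MEF and 155 and 179 in ES cells (log2 change 2.59, SE 0.19, adjusted p 3.2e-16). Malat1 with Neat1 had a log2 change of 2.44 (SE 0.14, adjusted p 3.2e-20). Spc24, a kinetochore gene, with Kank2 gave 25.3 and 28.5 in MEF and 169 and 174 in ES cells (log2 change 2.41, adjusted p 4.8e-16), and Dido1 with Gid8 34.7 and 38.99 in MEF and 222 and 240.4 in ES cells (log2 change 2.39, adjusted p 6.7e-18). At 24 h, TKO cells had 121 and 151 at the Ssr2 pair, 82.3 and 79.6 at the Kank2 pair and 169 and 188 at the Gid8 pair.

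The 4 pairs furthest below MEF were those of S100a4, Snx9, Fads2 and Drap1 with their partners. S100a4, a calcium-binding protein gene on the fibroblast list, and S100a5 with S100a6, whose promoters are printed above (chr3:90600001-90610000 and chr3:90610001-90620000), gave 61.4 and 77.02 in MEF and 24.6 and 24.3 in ES cells (log2 change -1.77, SE 0.20, adjusted p 3.7e-10). TKO cells had 33.7 and 28.9 at 0 h, and the pair was not in the 24 h list. Snx9, an endocytosis gene, with 3300005D01Rik gave 33.3 and 42.8 in MEF and 11.4 and 15.4 in ES cells (log2 change -1.77, adjusted p 1.2e-07). The fatty acid desaturase genes Fads2 and Fads1 gave 25.3 and 37.1 in MEF and 12.6 and 14.8 in ES cells (log2 change -1.47, adjusted p 8.1e-06), and Drap1 with Efemp2, the fibulin-4 gene of elastic fibres, 26.7 and 27.6 in MEF and 9.01 and 14.2 in ES cells (log2 change -1.46, adjusted p 2.5e-05). All 8 of these named pairs kept their call with each replicate left out.

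Pairs with a ribosomal protein gene were higher in ES cells in 31 of 67 tested and lower in none, with a median log2 change of 0.58, where 24.1% of all gene-to-gene pairs were higher, 7.18% lower and the median was 0.18. Rps19 with Arhgef1 gave 18.7 and 27.6 in MEF and 93.1 and 94.4 in ES cells (log2 change 1.72, SE 0.21, adjusted p 2.5e-09), and Lama5 with Rps21 26.7 and 22.8 in MEF and 74.5 and 81.9 in ES cells (log2 change 1.43, adjusted p 4.4e-07). Of pairs with mitochondrial ribosome or respiratory chain genes 32 of 92 were higher and 2 lower (median 0.42), led by Mrpl45 with Npepps (18.7 and 25.7 in MEF and 112 and 128 in ES cells; log2 change 2.14, adjusted p 2.0e-12). Zinc finger genes had 19 of 75 higher and 3 lower (median 0.25), near the share and the median of all gene-to-gene pairs, led by Zfp213 with Zscan10, a factor of ES cells (22.7 and 10.5 in MEF and 73.9 and 85.5 in ES cells; log2 change 2.10, adjusted p 2.1e-09). Without MEF replicate 2 the higher counts were 20, 19 and 12, and with DESeq2 14, 16 and 11.

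The fourth comparison set KLF4 contacts of ES cells against day 3 of reprogramming. Of 799 gene-to-gene pairs in both lists 52 were called (6.51%), 26 higher and 26 lower in ES cells, against 7.20% of all 7387 pairs (3.02% higher, 4.18% lower). The median log2 change was 0.09, against 0.00 over all pairs. The count depended on the library left out: it was 23, 20 and 16 without day 3 replicates 1, 2 and 3, and 30 without ES replicates 3 and 4. DESeq2 called 9. With contact totals per chromosome 6 were higher and 13 lower.

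Higher in ES cells were Gas2l1 with Ewsr1, an RNA-binding protein gene, with 31.3, 24.3 and 22.7 on day 3 and 46.7 and 55.7 in ES cells (log2 change 1.02, SE 0.21, adjusted p 0.00020), and Bcl3 with Gm16174, with 29.4, 28.7 and 26.03 on day 3 and 45.98 and 66.9 in ES cells (log2 change 1.02, SE 0.21, adjusted p 0.00025), a call lost without ES replicates 3 and 4 (adjusted p 0.15). Nxf1, the mRNA export factor gene, with Bscl2 and Gng3 had 12.9, 7.36 and 3.88 on day 3 and 15.1 and 14.1 in ES cells (log2 change 1.11, adjusted p 0.028), and Polh and Xpo5 with Polr1c 11.04, 15.5 and 11.6 on day 3 and 24.4 and 25.3 in ES cells (log2 change 0.90, adjusted p 0.015). These 2 lost the call without 4 and 3 of the 5 replicates in turn (highest adjusted p 0.34 and 0.19). H3K27ac was also higher in ES cells than in MEF at all 4, with log2 changes of 1.36, 1.19, 1.02 and 0.79 (the call of Nxf1 depended on MEF replicate 1). That comparison has MEF in place of day 3 cells. Among all gene-to-gene pairs tested in it 24.1% were higher and 7.18% lower, with a median of 0.18. Whether the 2 kinds of contact changed together was not tested. The pair of Pou5f1 with Tcf19 rose from 29.4, 24.3 and 27.1 to 43.8 and 44.4 (log2 change 0.70, adjusted p 0.021), and that of Hoxc12 with the long non-coding RNA gene Hotair from 34.9, 33.9 and 30.5 to 48.8 and 57.9 (log2 change 0.69, adjusted p 0.019), and both calls were lost without each day 3 replicate in turn and without ES replicates 3 and 4 (highest adjusted p 0.22 and 0.31).

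Lower in ES cells were Podxl, the podocalyxin gene, with Gm43154 (38.6, 45.6 and 50.95 on day 3, 25.9 and 15.2 in ES cells; log2 change -1.27, SE 0.22, adjusted p 1.6e-05), Os9 with B4galnt1 (49.7, 43.4 and 45.4 on day 3 and 24.4 and 15.7 in ES cells; log2 change -1.25, adjusted p 2.1e-05), Arl2bp with Pllp (33.1, 44.2 and 40.98 on day 3 and 21.6 and 15.2 in ES cells; log2 change -1.21, adjusted p 8.1e-05) and Rps16 with Plekhg2 (51.5, 53.01 and 35.997 on day 3 and 18.7 and 21.9 in ES cells; log2 change -1.16, adjusted p 7.3e-05). These 4 kept their call with each replicate left out. The Rps16 pair was higher in ES cells than in MEF by H3K27ac (40.01 and 33.3 in MEF, 64.3 and 64.7 in ES cells; log2 change 0.59, adjusted p 0.020), although that call was lost without MEF replicate 2 (adjusted p 0.40), ES replicate 1 (0.065) or ES replicate 2 (0.054). Of these 4 pairs the MEF H3K27ac list held 2 and the ES H3K27ac list 3. The difference between the H3K27ac and KLF4 changes was not tested.

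**Figure D5:**
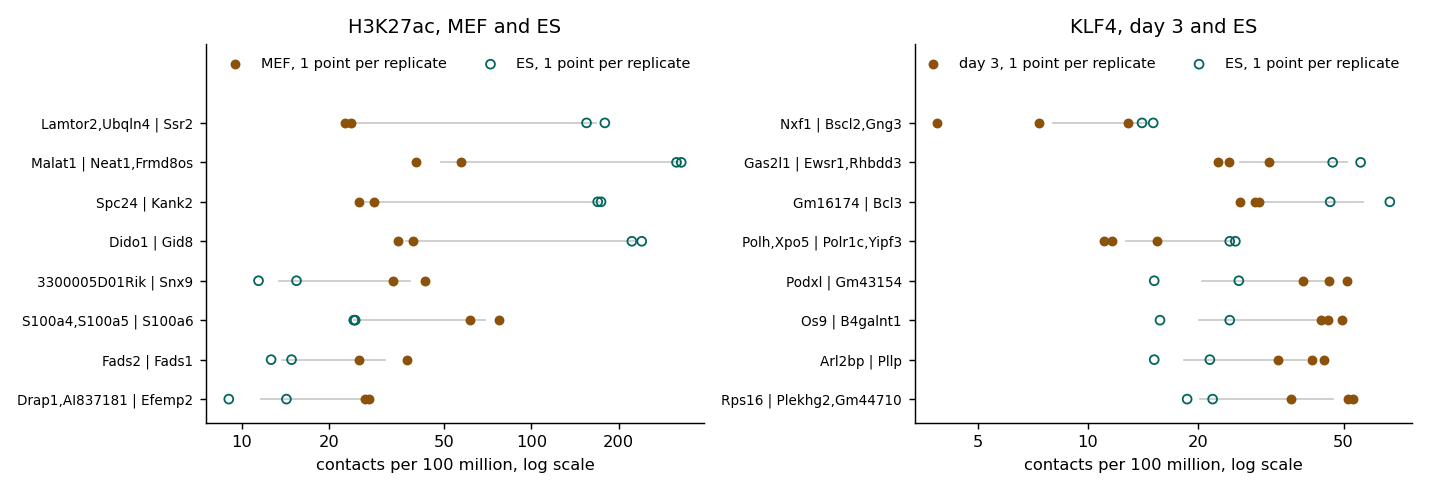
Strength in contacts per 100 M (log axes) of the named gene-to-gene pairs, 1 point per replicate, for H3K27ac in MEF (filled) and ES cells (open) on the left and for KLF4 on day 3 (filled) and in ES cells (open) on the right. Grey lines join the group means. On the left Lamtor2 to Ssr2 goes from 22.7 and 23.8 to 155 and 179, and S100a4 to S100a6 from 61.4 and 77.0 to 24.6 and 24.3.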

How the data were processed

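In situ HiChIP and Hi-C contacts of 25 libraries in 9 groups were used as 10 kb bin-pair lists. Per the submitters' processing notes reads were aligned with Bowtie2 2.2.3 to mm10. The contact caller, the test behind the deposited p-values and the treatment of multi-mapping reads are not given in the sources used here. Per the file headers, the deposited lists give for each pair the contact count, a CPM per chromosome with all listed values at 3 or above in the HiChIP lists, the ratio of the count to that expected at the distance, a p-value and an FDR. In the Hi-C lists the authors' CPM column is a signal scaled by constants of unstated origin and was not used. The score in the authors' domain lists was not used either. Library totals were recovered from the deposited counts and CPM.

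Strength is contacts per 100 M contacts of the library (M for mega). Pairs in both lists of a comparison were tested with edgeR 4.0.16 (filterByExpr, TMM on contact totals, quasi-likelihood test, Benjamini-Hochberg adjustment over all pairs, called under 0.05) in R 4.3.3, after joining libraries whose counts agreed within sampling noise. On simulated counts with 200 pairs raised 2-fold the test recovered 87% (TKO, 67728 pairs), 77% (ES against MEF, 17901) and 82% (KLF4, 7387). It made 3, 16 and 8 false calls. The simulation used 1 dispersion for all pairs and rises of 2-fold only, so recovery of smaller changes was not measured. Alternatives were DESeq2 1.42.0, other scalings, no filter, libraries kept separate, a replicate block and each replicate left out. Tables were made with Python 3.11.15 and pandas 2.3.3. Wilson intervals cover counting error only, and PCR reads are not independent molecules.

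Pairs named with values were the 8 largest called changes in each direction in TKO cells and the 4 largest in the other tests, the 5 strongest at 20 kb or more, the 5 longest, the 4 strongest of each TKO list alone, called pluripotency pairs, the bins with the most partners and the strongest pair within a family. The TKO changes were taken only from called pairs whose groups did not overlap. Other pairs were chosen after their values were seen. The members and lists were chosen with earlier results of these data known. Some pairs that these rules select are not reported here.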

Additional observations from a re-analysis of the deposited data

How the results depend on the processing

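No called log2 change of a named pair changed sign in the settings that gave it an adjusted p. Contact totals moved the median log2 change of all pairs from 0.01 to -0.10 in TKO and from -0.04 to 0.21 in ES against MEF. Of the 85 TKO calls, scaling by contact totals gave 162, totals of each chromosome 159, DESeq2 3 and anchors of at least 50 kb 6, and leaving out replicates gave 15 to 65. Of the 614 calls in ES against MEF, DESeq2 gave 254, anchors of at least 50 kb 103 and leaving out replicates 384 to 515. Of the 52 KLF4 calls, contact totals gave 27, chromosome totals 19, DESeq2 9, anchors of at least 50 kb 5 and leaving out replicates 16 to 69, and with all 7 libraries separate 79 were called. Without the filter on low counts, and without the 3 pairs that name the same gene at both anchors, the counts were 85, 614 and 52. With libraries separate TKO gave 97. DESeq2 gave an adjusted p to only 260 of 5241 gene-to-gene pairs in TKO, 1398 of 1964 in ES against MEF and 280 of 799 in KLF4.

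The replicate number as a block, with libraries separate, gave 108 calls in TKO, 640 in ES against MEF and 27 in KLF4. Correlations between the deviations of same-numbered libraries from their group means were -0.0523 to 0.0306, and not every library correlated best with its own number. These were taken over single pairs with few counts, and with 2 libraries per group, as in ES against MEF, the values mirror each other. They cannot show whether same-numbered libraries share a batch. The difference in share of counts was -0.0193 to -0.0881 percentage points with a replicate left out, and -0.0625 with libraries separate (exact permutation test, two-sided, p = 0.20).

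Shares of pairs found again moved with the matching rule. With each anchor allowed 1 bin away, 89.3% of 0 h pairs were kept at 24 h, and the other lists held 52.4% (MEF H3K27ac), 88.3% (ES H3K27ac), 34.1% (day 3 KLF4), 11.6% (day 6 KLF4), 53.0% (ES KLF4), 68.1% (MEF Hi-C) and 85.5% (ES Hi-C). With lists cut to equal length these were 77.8%, 38.9%, 83.7%, 35.1%, 10.6%, 56.8%, 20.5% and 27.3% in the same order. With anchors of at least 50 kb they were 55.7%, 14.7%, 65.0%, 9.34%, 0.662%, 12.3%, 20.6% and 37.9%. The cause of these moves was not tested, apart from the fewer pairs tested at 50 kb or more. With a median of 22 to 35 counts per listed pair in TKO libraries, small changes of weak, long contacts were not detectable, and pairs below the authors' filters were not analysed here.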
